A study of Mus musculus with 9 samples.

Results

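The 2 old and 2 young WT Cre libraries of mouse brain endothelial cells (ECs) were compared by the positions and ranks of their open-chromatin peaks. They were chosen by genotype and age group in the labels and are 4 of the 9 libraries of the study. The genotype was CdH5CRE in all 4, a Cre recombinase driven by the promoter of Cdh5, the VE-cadherin gene. Both ages thus carried the Cre with intact Klf4, and age group was the only labelled difference. The labels used do not give sex, and the study used mice of both sexes. The other 5 libraries were 3 young and 2 old ECK4KO (EC-K4KO) libraries, from mice with Klf4 deleted in ECs. Per the study's discussion, control and deleted mice were given the same tamoxifen treatment. The peaks of the EC-K4KO libraries helped to set the bounds of the regions, but the old-only and young-only calls did not use them. The labels give replicate numbers but do not say whether a library is 1 animal or a pool, so p-values measure the spread between these libraries.

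Brain ECs line the vessels of the brain and form the blood-brain barrier (BBB), with tight junctions between cells and transporters in their membranes. ETS factors such as ERG and FLI1 and SOX factors such as SOX17 and SOX18 maintain EC identity, and shear-responsive KLF2 and KLF4 hold the quiescent state. In ATAC-seq the transposase Tn5 cuts DNA that nucleosomes and other proteins leave exposed, so peaks mark active promoters and enhancers. Omni-ATAC-seq is a version with less mitochondrial background. The number of peaks in a list also depends on sequencing depth and on the share of reads in open chromatin, which were not analysed here, so a peak missing from a short list is not shown to be closed.

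Peaks of the 9 libraries that shared at least 1 bp were joined into regions. A region was called old-only when both old WT Cre libraries had a peak in it and neither young WT Cre library did, and young-only for the converse. Since the lists differed greatly in length, regions were called from the 6157 strongest peaks of each library, the length of the shortest list, ranked by the peak caller's -log10 p. Rank 1 is the strongest peak. A region called in this way differs in rank between the ages, which need not be a difference in presence. The region rule used these values, so the regions are described without a test.

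The regions that carry these differences are shown first, as 200 bases of the GRCm38 reference. Matches to 8 short factor motifs are in capitals. For Fkbp5 and Hlf the window ends at the base before the TSS and reads along the gene. For the others it is the centre of the strongest peak on the plus strand. The windows are examples and not the strongest regions in order. Old-only promoter examples are Fkbp5 (chr17:28486150-28486349), the feedback chaperone of the glucocorticoid receptor, and Hlf (chr11:90390896-90391095), a PAR bZIP factor of the circadian output. Hlf stood at ranks 5060 and 4452 in the old libraries, near the old-only median of 4558, and stronger promoters such as Pgbd5 are not printed. Distal old-only windows come from upstream of Aacs (chr5:125465732-125465931), from an intron of Coro2b that was annotated to Anp32a (chr9:62435827-62436026), and from upstream of Alas1 (chr9:106259105-106259304), which encodes the rate-limiting enzyme of haem synthesis.

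Fkbp5: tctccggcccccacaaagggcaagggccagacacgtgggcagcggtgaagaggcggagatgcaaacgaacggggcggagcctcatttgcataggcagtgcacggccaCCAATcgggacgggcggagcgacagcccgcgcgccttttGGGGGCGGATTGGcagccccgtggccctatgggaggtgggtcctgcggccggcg

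Hlf: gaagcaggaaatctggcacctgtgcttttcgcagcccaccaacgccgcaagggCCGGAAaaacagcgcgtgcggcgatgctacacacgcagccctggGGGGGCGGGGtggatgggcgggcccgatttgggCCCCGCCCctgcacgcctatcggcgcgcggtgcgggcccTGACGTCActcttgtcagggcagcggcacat

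Aacs: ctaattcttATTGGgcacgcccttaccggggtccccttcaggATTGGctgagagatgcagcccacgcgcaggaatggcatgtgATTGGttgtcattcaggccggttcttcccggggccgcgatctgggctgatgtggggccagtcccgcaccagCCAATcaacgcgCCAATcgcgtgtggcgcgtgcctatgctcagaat

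Anp32a: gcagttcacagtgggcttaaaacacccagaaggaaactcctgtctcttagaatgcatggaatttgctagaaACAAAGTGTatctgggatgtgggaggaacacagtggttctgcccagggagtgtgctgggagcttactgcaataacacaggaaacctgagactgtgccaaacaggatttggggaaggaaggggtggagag

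Alas1: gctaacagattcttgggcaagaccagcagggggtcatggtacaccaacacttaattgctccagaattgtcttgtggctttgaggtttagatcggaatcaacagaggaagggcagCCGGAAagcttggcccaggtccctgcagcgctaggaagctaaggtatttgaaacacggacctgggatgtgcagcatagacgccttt

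Young-only examples are windows near Kdm6b (chr11:69418894-69419093), an H3K27 demethylase gene, and near Klf9 (chr19:23135411-23135610), a glucocorticoid-induced KLF gene. A further window lies within a coding exon of Ctcf that was annotated to Rltpr (chr8:105664303-105664502). The Ctcf region is the 1 young-only region without a peak in either old WT Cre list, so it is not typical of them.

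Kdm6b: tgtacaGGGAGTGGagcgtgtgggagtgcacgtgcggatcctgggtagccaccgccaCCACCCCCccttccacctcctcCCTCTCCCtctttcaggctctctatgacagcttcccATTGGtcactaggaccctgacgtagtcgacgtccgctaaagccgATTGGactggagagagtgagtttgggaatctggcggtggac

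Klf9: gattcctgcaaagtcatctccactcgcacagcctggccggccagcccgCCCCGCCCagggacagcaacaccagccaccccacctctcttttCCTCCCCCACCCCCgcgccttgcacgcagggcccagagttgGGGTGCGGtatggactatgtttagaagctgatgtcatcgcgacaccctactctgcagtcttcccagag

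Rltpr: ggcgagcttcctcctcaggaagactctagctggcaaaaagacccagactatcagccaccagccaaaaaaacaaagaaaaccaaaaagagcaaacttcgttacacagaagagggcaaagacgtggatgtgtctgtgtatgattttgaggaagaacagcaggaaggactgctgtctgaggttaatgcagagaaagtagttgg

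The windows held different motifs. The Aacs window held 5 NF-Y boxes (CCAAT or its reverse, ATTGG), and the Fkbp5 window held 2 with a KLF/SP box between them. The Hlf window held an ETS site (CCGGAA), 3 KLF/SP boxes (CCNCNCCC), of which the first and second overlap, and a cAMP response element (TGACGTCA). The Anp32a window held 1 match to the glucocorticoid response element pattern ACANNNTGT, and the Alas1 window held 1 ETS site. The Klf9 window held 5 KLF/SP boxes, some of which overlap. No motif of the 8 matched the 200 bases within Ctcf. A match describes the letters and is no evidence of binding.

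Old lists were several times longer than young lists and held far more distal peaks. The young WT Cre lists held 6157 and 9598 peaks and the old WT Cre lists 43893 and 32555. In the whole lists promoter-TSS peaks made up 55.5% and 47.0% of the young peaks against 18.8% and 25.2% of the old peaks. The median distance to the nearest TSS was 229 and 316 bp in the young lists and 22478 and 12880 bp in the old lists. The age groups did not overlap in any of these 3 values. With whole lists, 16105 of 53095 WT Cre regions were old-only (30.3%) and 1 was young-only (0.00188%). The young-only count was 1397 without young WT Cre replicate 1, 546 without young WT Cre replicate 2 and 1164 when peaks had to overlap by 50% of each. Without old WT Cre replicate 2, 34795 regions were old-only and 2 young-only. Of the old-only regions 39.0% were intronic, 34.2% intergenic and 19.3% promoter-TSS. By the authors' gene names, 2984 of 20035 genes had a promoter-TSS peak only in the old whole lists (14.9%) and 131 only in the young (0.654%), although 1 region was young-only. A peak takes the name of the TSS nearest to its centre, so peaks of 1 region can carry different names.

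**Figure D1:**
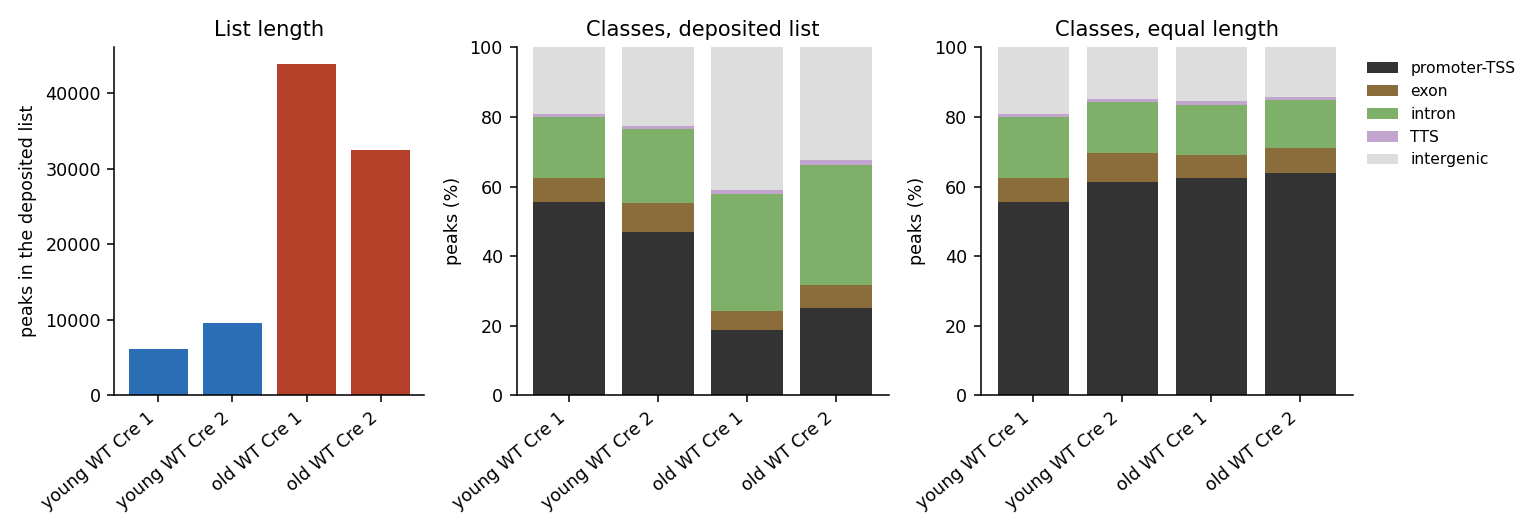
Number of peaks in each deposited WT Cre list (left) and the percentage of peaks in each annotation class for the whole lists (middle) and for the 6157 strongest peaks (right), 1 bar per library. The old lists are longer and mostly intronic and intergenic, and at equal length all 4 lists are mostly promoter-TSS peaks (55.5% to 63.9%).

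At equal length most of the difference in class was gone. The promoter-TSS share was 55.5% and 61.3% in the young and 62.5% and 63.9% in the old libraries, 4.85 percentage points higher in the old (exact permutation test, p = 0.333, the smallest that 2 against 2 libraries allow). The intergenic share was 19.1% and 14.8% against 15.5% and 14.3%, and these groups overlapped (exact permutation test, p = 0.667). The median distance to the TSS was 229 and 172 bp in the young and 171 and 158 bp in the old (exact permutation test, p = 0.333). Young WT Cre replicate 1 stood apart in all of these. Without it the promoter difference was 1.95 percentage points, the intergenic difference turned to 0.0731 percentage points higher in the old, and the distance difference was -7.5 bp. Peak width differed more than class did. The median width was 346 and 402 bp in the young libraries and 610 and 620 bp in the old, a difference of 241 bp (exact permutation test, p = 0.333). Over 13 measures tested together, no Benjamini-Hochberg adjusted p from these exact permutation tests was under 0.482.

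The 2 young libraries differed in how much they shared with the old ones. At equal length 72.0% of their peaks overlapped, against 68.8% to 77.2% for the 4 pairs of an old and a young WT Cre library. Young WT Cre replicate 1 shared 68.8% and 69.5% with the old libraries, less than with its own replicate, and young WT Cre replicate 2 shared 76.1% and 77.2%, more than with its own replicate. The 2 old libraries shared 89.6%. The old WT Cre libraries shared 87.8% to 88.9% with the old EC-K4KO libraries and 79.6% to 83.1% with the young EC-K4KO libraries. The overlap of the young pair thus lay between those of the old-young pairs.

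**Figure D2:**
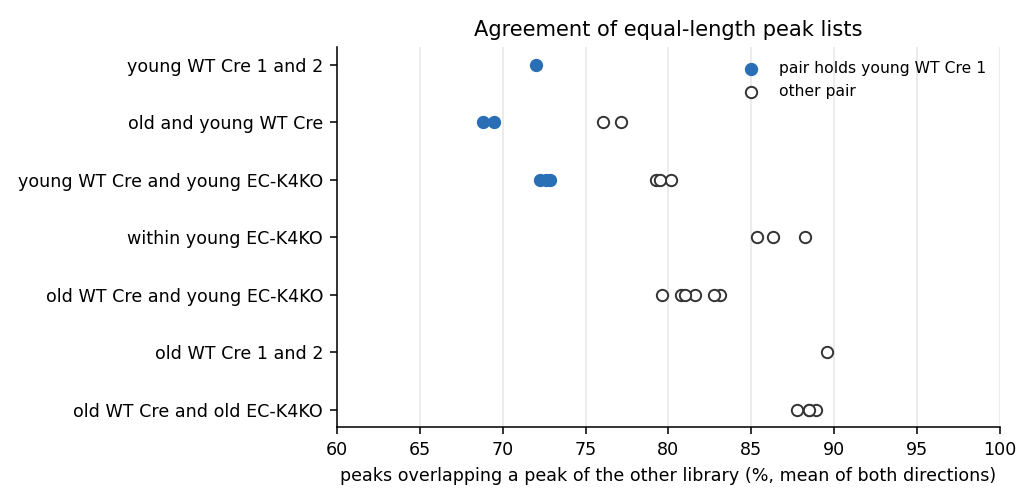
Percentage of the 6157 strongest peaks of a library that overlap a peak of another library (mean of both directions), 1 point per pair of libraries, grouped by the kinds of library paired. Filled points are the pairs with young WT Cre replicate 1, between 68.8% and 72.9% in the pairs drawn, and the horizontal axis starts at 60%. Pairs of a young WT Cre and an old EC-K4KO library are not drawn.

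At equal length, 737 of 9180 WT Cre regions were old-only (8.03%) and 433 were young-only (4.72%). All 4 libraries had 3685 regions (40.1%), and 2531 regions (27.6%) were in 1 library alone, of which 1952 were in a young library and 579 in an old one. When young WT Cre replicate 1 was left out, 1077 regions were old-only and 1157 young-only, and without young WT Cre replicate 2 the counts were 1487 and 1662. Without old WT Cre replicate 1 they were 996 and 569, and without old WT Cre replicate 2 they were 1058 and 612. In each case 1 library alone stood for its age. The rule was then looser for both calls, in presence for that side and in absence for the other.

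Lower-ranked peaks of the other age could be seen only as far as its lists reached. The whole list of young WT Cre replicate 1 is the 6157 peaks used for the call, and that of young WT Cre replicate 2 ends at 9598, so the counts for the old-only and the young-only regions cannot be compared. Of the 737 old-only regions, 557 (75.6%) had no peak in either whole young list, and 180 had a weak peak in young WT Cre replicate 2. Of those 557, 499 lay more than 5000 bp from any young peak. Of the 433 young-only regions, 432 had a peak of lower rank in both whole old lists, at median ranks of 8608 and 8151. With 1 exception, young-only regions were thus peaks in both old libraries that stood lower in the order of strength.

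Old peaks were wider whichever age ranked the region higher. At the 180 old-only regions with a peak on both sides the old peak was wider at 170, with a median of 518 bp against 264 bp in the young. At the 432 young-only regions with peaks on both sides the old peak was wider at 431, with a median of 843 bp against 395 bp in the young. The fold enrichment at these regions was higher in the old libraries at 386 of them, with a median of 5.93 against 4.35. At the regions of all 4 libraries the medians were 675 and 420 bp in width and 9.24 and 5.55 in fold. The peak caller averages its values over a broad peak, and the part of width in the ranks was not tested.

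Old-only and young-only regions were both more often distal than the regions all 4 libraries held, and distal old-only regions lay farther from a TSS. Ranks averaged over the 2 libraries of an age also differed. The median was 4558 in the old libraries for old-only regions and 4422 in the young libraries for young-only regions. For the regions of all 4 it was 2070 in the young libraries. The part of rank in the class, distance and motif shares was not tested. Promoter-TSS made up 53.5% of the old-only, 43.9% of the young-only and 69.4% of the regions in all 4 libraries. Intergenic regions were 21.0%, 19.4% and 12.1%, and introns 19.7%, 25.2% and 11.4%. Exons made up 11.1% of the young-only regions against 4.48% of the old-only. Outside promoters the median distance to a TSS was 17595 bp for old-only, 8092 bp for young-only and 8368 bp for the regions of all 4 libraries. Including promoters, the median was 178 bp for old-only, 369 bp for young-only and 156 bp for the regions of all 4 libraries.

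The promoter windows also differed in sequence. The central 300 bases held the ETS site CCGGAA in 42.4% of the 394 old-only promoter regions, 26.8% of the 190 young-only and 33.3% of the 2557 in all 4 libraries. The NF-Y box CCAAT stood in 51.5%, 22.1% and 50.5% respectively. ETS factors and NF-Y bind close to the TSS of many promoters. The KLF/SP box CCNCNCCC was in 68.8%, 76.8% and 77.3%. Away from promoters the AP-1 site TGANTCA was in 9.62% of old-only, 19.8% of young-only and 13.8% of the shared regions. In promoter regions it was in 3.05%, 6.84% and 3.87% respectively. Mean GC in promoter windows was 63.8%, 68.8% and 64.5%. Over 32544 RefSeq promoters of 300 bases, counted on both strands, 4876 held the ETS site, and the shares were 37.4% for NF-Y, 49.7% for KLF/SP and 7.79% for AP-1.

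**Figure D3:**
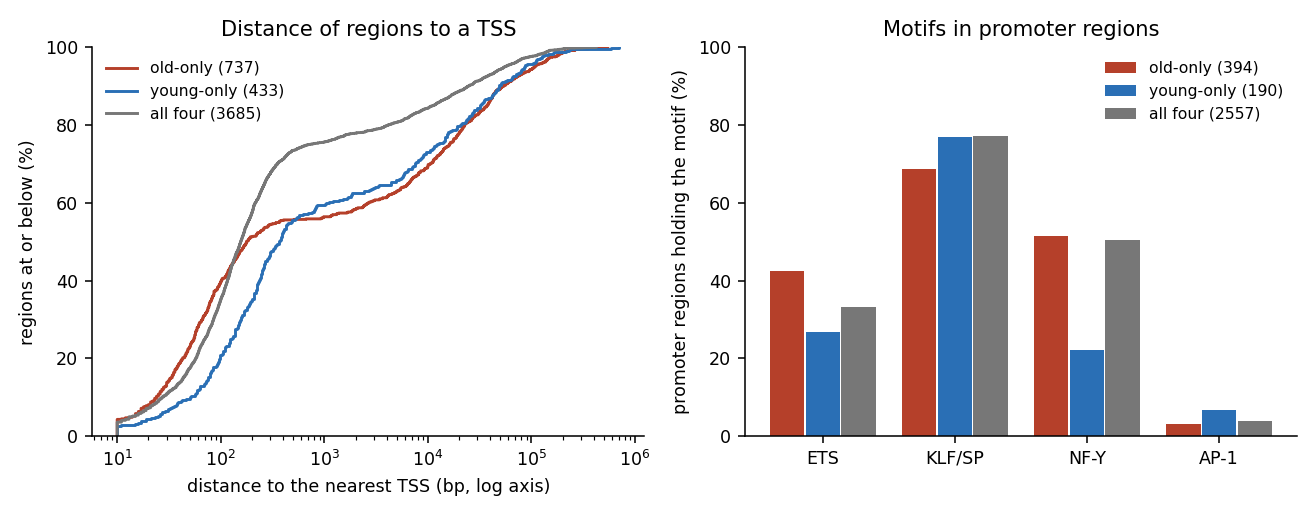
Left, cumulative percentage of regions by distance to the nearest TSS (log axis, distances under 10 bp drawn at 10 bp) for old-only, young-only and shared regions. Right, percentage of promoter-TSS regions whose central 300 bases hold 4 of the motifs, with the number of promoter regions in the key. Old-only promoters hold the ETS site in 42.4% and young-only in 26.8%, and young-only promoters hold the NF-Y box in 22.1%.

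Per library, the ETS site was in 24.4% and 26.6% of young and in 28.7% of the peaks of each old library (exact permutation test, p = 0.333). The NF-Y box was in 38.5% and 38.3% against 41.3% and 40.8%, and the AP-1 site in 8.61% and 7.98% against 6.82% and 6.69% (exact permutation test, p = 0.333 for each). None of these groups overlapped, and 2 against 2 libraries allow no smaller p. The EC-K4KO means differed with age in the same direction, by 0.428, 3.12 and -0.696 percentage points for the ETS, NF-Y and AP-1 sites, and the EC-K4KO age groups overlapped for the ETS site (27.5%, 28.0% and 28.2% young, 28.0% and 28.7% old).

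The strongest old-only regions were ranked between 877 and 2476 in the old libraries. The strongest was the promoter of Pgbd5 (chr8:124433921-124434772), a domesticated transposase gene, at ranks 877 and 1157 with folds of 13.0 and 13.2. It had no peak in either young WT Cre list, while all 5 EC-K4KO libraries ranked it between 685 and 2473. Flywch1 was at ranks 1539 and 1201, and Snord104, a small nucleolar RNA, at 1750 and 1233. Neither had a peak in a young WT Cre list. The promoters of Zcchc17, Dmwd and D10Jhu81e likewise had none, at ranks of 1380 to 2081 in the old libraries. Poc5, a centriole gene, was at ranks 1429 and 2476 and had a weak peak at rank 7018 in young WT Cre replicate 2. The second promoter of Tef, a PAR bZIP circadian factor, was at ranks 1954 and 1778 and absent from both young lists, whereas the other Tef promoter was in all 4 libraries at ranks 1184 to 1807.

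Several strong old-only regions were distal. The intergenic region at -10042 bp from the TSS of Aacs, an acetoacetyl-CoA synthetase gene of ketone body use, had ranks of 1553 and 1479. The region at -11250 bp from Alas1 had ranks of 2176 and 1644. Both were within the first 5536 peaks of every EC-K4KO library. The region in the Coro2b intron annotated to Anp32a was at 1657 and 1648, in both old EC-K4KO libraries at 1712 and 2691, and lower in the young EC-K4KO libraries at 5477, 9517 and 7436. Further regions lay in introns of the noncoding gene Pvt1 (ranks 2764 and 1275) and of Rundc3b (2071 and 2090, with a weak peak at 7416 in young WT Cre replicate 2).

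The strongest young-only regions had peaks in both old lists, with 1 exception. The region at -5318 bp from the TSS of Kdm6b (chr11:69417601-69419371) was at ranks 1362 and 994 in the young and 6346 and 6388 in the old libraries, just outside the 6157 peaks used. Phldb1 was at 1126 and 1396 against 9328 and 6492. The start of Rbm3 and its antisense Rbm3os, a cold-induced RNA-binding protein locus, was at 1463 and 1441 against 6967 and 7399, and its fold was 6.64 and 7.31 in the young but 8.29 and 8.50 in the old. Zfp219 was at 810 and 2411 against 8129 and 6974. The Klf9 region, at -5716 bp, was at 1873 and 2011 against 6661 and 7675.

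The exception lay in a coding exon of Ctcf (chr8:105663787-105665018), the gene of the main insulator protein, and was annotated by the nearest TSS to Rltpr, at -26504 bp. It was the strongest peak of young WT Cre replicate 2, with a fold of 5.66 and a width of 1232 bp, and was at rank 3132 in replicate 1. Its -log10 p was 349.9 in replicate 2, where the median of the 6157 strongest peaks was 8.04, and 6.81 in replicate 1. The highest fold in replicate 2 was 11.49, so the rank of 1 came from an outlying p and not from the fold. All 3 young EC-K4KO libraries had it, at ranks 8126, 9578 and 13557, and none of the 4 old libraries of either genotype did. Of its central 300 bases 28.3% were repeat-masked. It was the single young-only region of the whole lists.

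**Figure D4:**
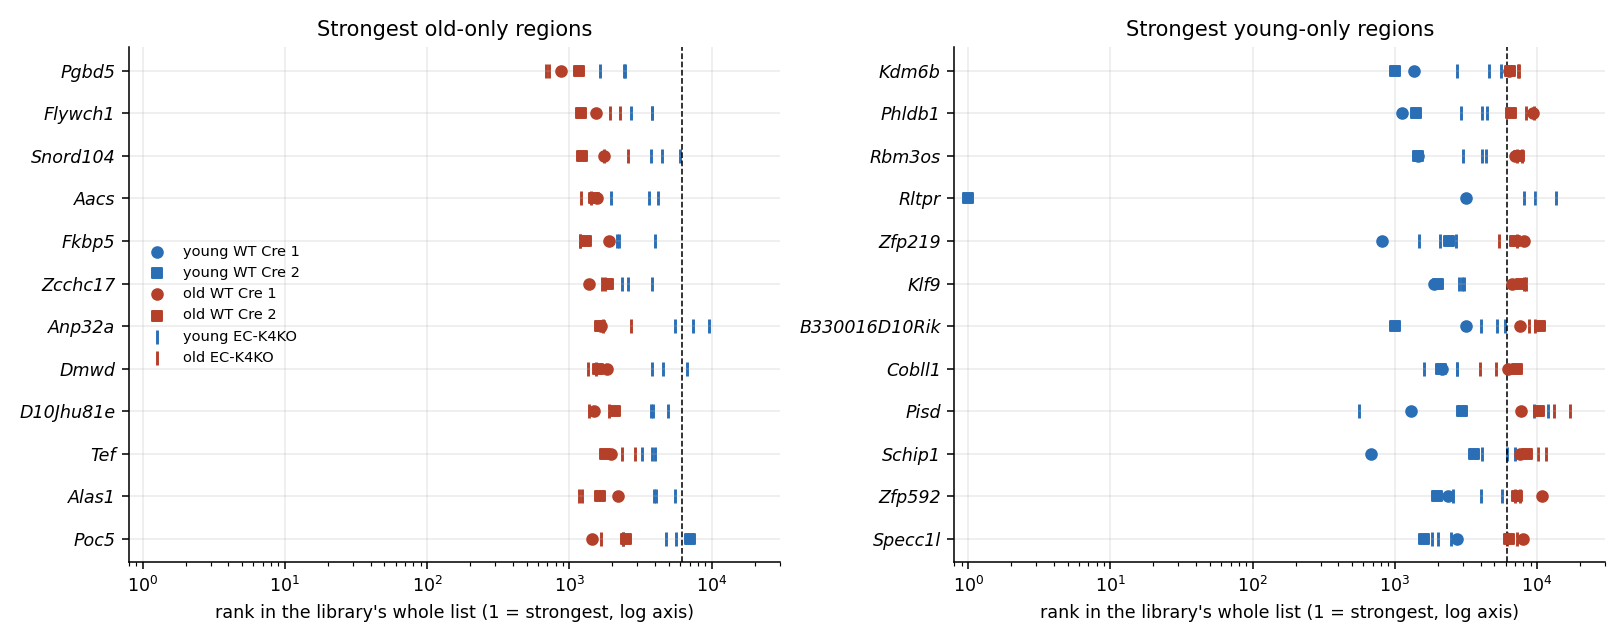
Rank of the 12 strongest old-only (left) and young-only (right) regions in the whole list of each library (log axis, 1 is the strongest). Circles and squares are WT Cre replicates 1 and 2, ticks are EC-K4KO libraries, blue is young and red is old, and a missing mark means no peak. The dashed line is the 6157-peak limit. Young WT Cre marks are absent on the left except for Poc5, and old WT Cre marks lie beyond the limit on the right except for Rltpr, which has none.

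Promoters were then read by gene. By the authors' class and gene name, 475 of 20035 genes had an old-only promoter (2.37%) and 261 a young-only promoter (1.3%). By a peak within 500 bp of a GENCODE TSS, the counts were 494 (2.25%) and 289 (1.32%) of 21924 protein-coding genes. The TSS rule, chosen after the data were seen, is used below, since 1 region could carry several names. Among 378 genes in lists of EC functions, stress responses and other cell types, 10 had an old-only and 13 a young-only promoter, 118 had a promoter peak in all 4 equal-length lists and 182 in none.

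Barrier, junction and Notch genes were among the young-only promoters. Young-only promoters were 1.32% over all genes and 13 of the 378 listed genes by the TSS rule. Listed genes more often had a promoter peak in all 4 lists (118 of 378, against 3330 of 21924). The share over all genes is therefore a low base for them. In tight and adherens junctions, 2 of 20 genes were young-only and none old-only by the TSS rule, and 0 were young-only by the authors' names. These were Tjp1, which encodes the scaffold ZO-1 (ranks 4101 and 1514 against 16073 and 6386), and Magi1, a junction scaffold gene (1196 and 3937 against 8340 and 7603). In VEGF, angiopoietin and Notch signalling 3 of 20 were young-only, all of the Notch pathway, and 2 by the authors' names, which leave out Notch4. Notch1 was at 4173 and 4586 against 9114 and 8959, Notch4, the EC-enriched receptor, at 4599 and 4556 against 7753 and 6787, and their target Hey1 at 4783 and 6155 against 9545 and 9573. The folds of these 3 genes were higher in the old libraries. They were 3.91 and 4.13 against 4.49 and 4.91 for Notch1 and 3.865 and 4.38 against 5.03 and 5.79 for Notch4. For Hey1 they were 3.74 and 3.53 against 4.16 and 4.33. For Tjp1 and Magi1 the folds of the ages overlapped. In BBB transport 1 of 20 genes was young-only by the TSS rule, and 2 others were by the authors' names. The former was Slc7a1, the cationic amino acid carrier, at 2805 and 2721 against 11039 and 7809. A second Slc7a1 region, in an intron 6871 bp from the TSS but of the authors' promoter-TSS class, was old-only, at ranks 4057 and 6064. Cldn5, the main BBB claudin, and Slc2a1, the glucose carrier GLUT1, had a promoter peak in all 4 equal-length lists. Cldn5 was at 549 and 1407 in the young and 3865 and 4524 in the old libraries, without overlap of the ages. Its folds were also lower in the old, at 6.27 and 5.55 in the young against 5.05 and 5.48.

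Stress and arrest genes fell on both sides. Gadd45g, Mdm2, Igfbp7 and Rela were called by the TSS rule and not by the authors' names. Ifi27, an interferon-induced gene, was old-only at ranks 4051 and 4252. Among 20 genes of cell cycle arrest and senescence, Cdkn1c, the CDK inhibitor p57, was old-only (3502 and 3787), as was the stress gene Gadd45g (3458 and 4980, with a peak just outside the limit at 6183 in young WT Cre replicate 2). Mdm2, the ubiquitin ligase of p53, and Igfbp7 were young-only. Cdkn1a had a promoter peak in all 4 libraries, at ranks 3652 to 4072. Cdkn2a, of the WT Cre lists, had peaks in the old ones alone, at 20494 and 16048, far below the equal-length limit. Hsp90ab1, a cytosolic chaperone gene, was young-only (2285 and 3526 against 6600 and 7216), as were Bnip3, a hypoxia-induced mitophagy gene, Maff, a small MAF gene, and Rela, the p65 subunit of NF-kB.

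Among circadian and glucocorticoid targets, Fkbp5 was at 1881 and 1310 with folds of 12.04 and 14.5, and all 5 EC-K4KO libraries held it at ranks of 1188 to 4015. Hlf was at 5060 and 4452. With the second Tef promoter and a distal region annotated to Sgk1 (5234 and 5607, with a weak peak at 6562 in young WT Cre replicate 2), 4 of the 737 old-only regions (0.543%) and none of the young-only belonged to this list by the authors' names, against 17 (0.461%) of the regions in all 4 libraries, and 13 of its 20 genes had a promoter peak in all 4 libraries. Klf9, a target of the same receptor that stands in another list, had the young-only distal region given above and a promoter peak in all 4 libraries. In the extracellular matrix list Hspg2, which encodes perlecan, was old-only (4738 and 4963), and Lamb2 (4124 and 4370) was old-only by the TSS rule but in all 4 libraries by the authors' name.

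Distal regions annotated to EC transcription factor genes also lay on both sides. To the 20 KLF, ETS, SOX and forkhead genes, 5 old-only (0.678%) and 4 young-only regions (0.924%) were annotated, against 0.733% of the regions in all 4 libraries. All of these old-only and young-only regions were outside promoters by the authors' class. Old-only regions lay in introns of Ets1 (ranks 4001 and 2239) and Elk3 (5088 and 4128), over a coding exon of Ets2 (4359 and 4929), in a Gmds intron annotated to Foxc1 (5029 and 5407), and at -4046 bp from Sox18 (2299 and 3424, with a weak peak at 6285 in young WT Cre replicate 2). Beside Klf9, young-only regions lay 25864 bp from Sox17 (1654 and 4770), 5624 bp from Klf2 (2732 and 5118) and -581456 bp from Klf4 (4251 and 4301). Epas1, the HIF-2 alpha gene of the hypoxia list, had an old-only region at -21662 bp (2667 and 2624) and a young-only region in an intron (3942 and 4713). In all, 26 old-only regions (3.53%) and 29 young-only regions (6.7%) were annotated to list genes, against 5.51% of the regions in all 4 libraries.

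The labelled cell type was checked against its markers. Of 25 endothelial identity genes, 12 and 15 had a promoter peak in the whole young lists and 23 in each whole old list. Cdh5, Erg and Flt1 were in all 4 equal-length lists. Pecam1, which encodes CD31, had no promoter peak in either young list and ranked 13172 and 13680 in the old. Robo4, the EC guidance receptor gene, was the 1 old-only promoter of this list (ranks 3841 and 5661). In the whole lists, pericyte and smooth muscle markers had promoter peaks at 0 of 15 genes in both young libraries and in old WT Cre replicate 1 and at 4 in old WT Cre replicate 2, namely Kcnj8, Myh11, Des and Mcam at ranks of 18465 to 28649. Microglial markers had 0, 0, 0 and 1 of 15, astrocyte markers 1, 3, 5 and 5, oligodendrocyte markers 0, 1, 3 and 3, and neuronal markers 0, 0, 2 and 3, in the order young WT Cre replicates 1 and 2 and old WT Cre replicates 1 and 2. Neutrophil and erythroid markers had 0 of 15 in all 4. The counts were higher in the old lists, and between the 2 old lists they were higher in the shorter one for pericyte, microglial and neuronal markers. Their part in the old-only regions was not tested. No gene of these 6 lists had an old-only or young-only promoter at equal length, and 1 old-only region was annotated to Glul and 1 young-only region to Fgfr3 of the astrocyte list, both intergenic. Of 7 sex-linked genes, 0 had a promoter peak in either whole young list and 2 had one in each whole old list. Those were Eif2s3y (ranks 7656 and 5638) and Uty (9051 and 9376). Whether the ages differed in sex is unknown, and the part of sex or of list length was not tested.

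The regions chosen in WT Cre were then read in the EC-K4KO libraries, which the choice had not used. The whole EC-K4KO lists held 23848, 25309 and 27992 peaks in the young and 45026 and 39079 in the old libraries. The lowest -log10 p among the 6157 strongest was 8.26, 14.1 and 15.6 in the young and 55.3 and 45.8 in the old. List length and strength thus split these libraries as age did, and their part in the shares below was not tested. Old-only regions had a peak in 80.6% and 80.1% of cases in the 2 old EC-K4KO lists of equal length and in 41.9%, 52.0% and 49.1% in the 3 young ones, which is 80.3% ± 0.384 (SD, n = 2) against 47.7% ± 5.17 (SD, n = 3). The difference was 32.7 percentage points (two-sided exact permutation test, p = 0.1, the smallest 3 against 2 libraries allow). Young-only regions went the other way, with 13.4% and 13.2% in the old against 58.9%, 52.2% and 53.4% in the young EC-K4KO lists, a difference of -41.5 percentage points (exact permutation test, p = 0.1). With regions chosen without young WT Cre replicate 1 it was -24.5, and without young WT Cre replicate 2 it was -15.6 percentage points. The groups did not overlap in either case, and both adjusted p-values were 0.1. Of the regions of all 4 WT Cre libraries, 95.7% to 96.8% had a peak in each EC-K4KO list of equal length. Of the old-only regions 128 were in both old and in no young EC-K4KO library, and 175 were in all 5. Of the young-only regions 103 were in all 3 young and no old EC-K4KO library.

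**Figure D5:**
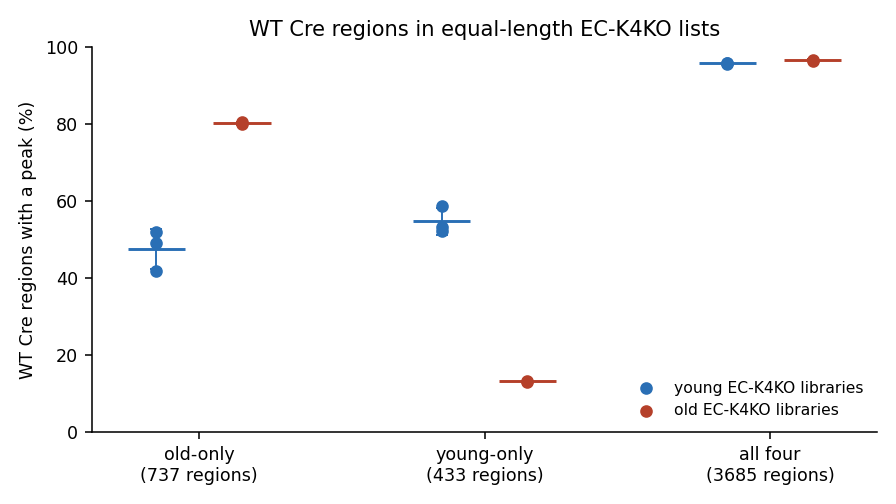
Percentage of the old-only, young-only and shared WT Cre regions with a peak among the 6157 strongest of each EC-K4KO library, 1 point per library, with group means and SD. Old EC-K4KO libraries (red) hold 80.1% and 80.6% of the old-only regions and 13.2% and 13.4% of the young-only ones.

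Whole lists gave a different picture of the same regions. The old-only regions had a peak in 82.5%, 99.2% and 99.9% of cases in the 3 whole young EC-K4KO lists and in 24.4% or none in the whole young WT Cre lists. The young WT Cre lists were the 2 shortest of the 9, so a region missing from them cannot be told apart from one below their limit of detection.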

How the data were processed

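Per the study's methods, adapters were cut with TrimGalore, Bowtie2 placed the reads on mm10 (GRCm38), duplicates and poorly mapped reads were dropped, and MACS2 called broad peaks, deposited as 1 list per library. The deposited lists give a score, a fold (ratio over local background), and -log10 p and -log10 q values, and the authors' annotation adds a class, a gene name and the distance to the TSS. Depth is unknown, so no counting interval is given. The authors' read-count test (DiffBind with DESeq2) was not rerun.

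Peaks were ranked by -log10 p, cut to 6157 and merged at 1 bp of overlap with Python 3.11.15, pandas 2.3.3 and numpy 2.4.6, and checked on simulated lists. Motifs were searched on both strands of the central 300 bases of GRCm38 (pysam 0.24.0). Groups were compared with two-sided exact permutation tests and Benjamini-Hochberg adjustment. Named regions are the 12 strongest of each side, the 6 strongest distal ones and those of the listed genes, of which examples are given. The regions, lists and tests were chosen with earlier results of these data known. GENCODE M21 gave TSS positions and RefSeq GRCm38.p6 the promoters. The result for 1 listed gene is not reported here.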

Additional observations from a re-analysis of the deposited data

Results flagged for a closer look

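The share of peaks holding the glucocorticoid-type pattern ACANNNTGT changed with age in opposite directions in the 2 genotypes. In WT Cre it was 4.76% and 4.34% in the young and 4.14% and 3.95% in the old libraries, and in EC-K4KO it was 3.82%, 3.54% and 3.87% in the young and 4.03% and 4.26% in the old. The WT Cre age difference minus the EC-K4KO age difference was -0.904 percentage points (exact permutation test over 60 arrangements, p = 0.0167, the smallest possible, and 0.217 after Benjamini-Hochberg adjustment over 13 measures). It does not pass the adjusted threshold.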

How the results depend on the processing

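Of 91 combinations of a result and an alternative setting, 67 kept their direction or stayed within 1.5 times the count. None of the exact tests in these combinations could pass 0.05 at these numbers of libraries, so their p-values say nothing of stability. Ranking by fold gave 1125 old-only and 885 young-only regions and 484 young-only promoter genes. The 3000 strongest peaks gave 301 and 257 regions and 226 old-only promoter genes. Requiring 50% reciprocal overlap gave 1630 old-only and 1200 young-only regions at equal length and 1164 young-only regions in whole lists. With each WT Cre library left out in turn, the counts ranged from 996 to 1487 for old-only regions, 569 to 1662 for young-only regions, 690 to 980 for old-only promoter genes, 369 to 681 for young-only promoter genes, 16758 to 34795 for old-only regions in whole lists and 1 to 1397 for young-only regions in whole lists. The intergenic difference ranged from -4.28 to 0.0731 percentage points and changed sign without young WT Cre replicate 1. An alternative added after the data were seen, lists of 9598 peaks without that library, gave 2350 and 2610 regions. The share of young-only regions in EC-K4KO differed with age by -51.71 to -15.63 percentage points over all settings. The cause was not tested. Leaving out 1 library drops 1 condition from each call, its presence for its own side and its absence for the other. Counts with a library left out are therefore not on the same footing as the main counts.

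A replicate block gave the same mean differences as the comparison without it (4.85 percentage points in promoter share, -2.1 in intergenic share, -36.0 bp in distance and 241.0 bp in width, sign-flip exact permutation p = 0.5 for each, the smallest that 2 pairs allow). The labels do not pair the numbers, and the deviations of same-numbered libraries correlated at 0.044 over 3685 regions. The unknown depth and the 2 libraries per age limit every comparison given here.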
